A study of Mus musculus with 30 samples.

Results

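The response to angiotensin II was measured in 16 of the 30 RNA-seq libraries of a series on cultured mouse cells that the labels call aortic smooth muscle. The 16 libraries were all libraries of sequencing run 3 that received either angiotensin II or no treatment in 2 knockdown arms. In the control arm, cells carried a control GapmeR, an antisense oligonucleotide that recruits RNase H. In the other arm, a GapmeR was directed at the long form of CASC15, a long noncoding RNA. The title names CASC15 in 1 of these 8 knockdown libraries and counts the name upward, from CASC16 to CASC22, in the others, so libraries were grouped by the code in their library names, which is the same for all. Each arm held 4 untreated libraries and 4 libraries treated with angiotensin II at 10 ng/ml for 24 h, so that 8 treated libraries stood against 8 untreated ones. Cells of every group were transfected for at least 24 h and kept in serum-free medium for 48 h, and no group was left without a GapmeR. Replicates 1 to 4 of each group carry the batch labels P16 to P19, and the meaning of these labels was not stated. Nothing in the labels says that the replicates came from separate cultures or animals, so p-values measure the spread between these libraries. The protocol text names rat as well as mouse aortic cells, and the species of the cells was not tested. A further 4 libraries of the same run, control cells given PDGF-BB at 10 to 30 ng/ml for 24 h, served as a reference for what the same batches show under another agonist.

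Angiotensin II is the effector peptide of the renin-angiotensin system. In vascular smooth muscle it is known to act mainly through the AT1 receptor, which couples to Gq and G12/13 proteins, raises cell calcium through phospholipase C, activates protein kinase C, RhoA and the ERK cascade, and transactivates the EGF receptor through shed HB-EGF. Known downstream genes include immediate early transcription factors, matrix and matricellular genes, inflammatory genes, NADPH oxidase subunits and contractile genes. Mice carry 2 AT1 receptor genes, Agtr1a and Agtr1b, and 1 AT2 receptor gene, Agtr2.

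The 16 libraries held 15771490 to 30362047 counts each, with a median of 18698844.5. Untreated control libraries (18382306 to 30362047) were in part deeper than treated control libraries (15771490 to 20385011). Mitochondrial genes took 2.37 to 3.33% of the counts. The smooth muscle markers were uneven. Acta2 (smooth muscle actin) had a median of 209 CPM (TMM-scaled CPM, each library's counts scaled to a common total) and Smtn (smoothelin) 59.8 CPM, whereas Tagln (transgelin) had 0.936 CPM, Myh11 (smooth muscle myosin) 0.282 CPM, and Cnn1 (calponin) between 0 and 4 counts in each library. The other smooth muscle markers were low as well: Lmod1 at 0.748 CPM, Des at 0.989 CPM and Myocd at 1.51 CPM. Some transcripts used as markers of other cells were present. Among fibroblast markers, Dcn had a median of 1681 CPM, Col14a1 of 196 CPM, Pi16 of 23.6 CPM and Pdgfra of 18.8 CPM. Lum had a median of 1.38 CPM and Dpt of 0.175 CPM. Of the 6 epithelial markers, Cdh1 (82.9 CPM) and Krt19 (164 CPM) were expressed, whereas Krt8 had a median of 0.765 CPM, Krt18 of 0.0527 CPM and Epcam of 0 CPM, and Cldn4 had 0 counts. Among leukocyte and macrophage markers, Ptprc and Adgre1 had 0 counts in all 16, while Cd14 had a median of 11.6 CPM and Cd68 of 0.562 CPM. Among endothelial markers, Tie1 had 0 counts and Pecam1 a median of 1.27 CPM. The fibroblast marker Thy1 had 0 counts. Of the glial markers, Mbp had a median of 46.3 CPM and S100b of 5.08 CPM, and Sox10 had 0 or 1 count in each library. The name smooth muscle cell therefore rests on the label, and with Tagln, Myh11 and Cnn1 so low the identity of the cells was not settled by these markers. The summed smooth muscle markers ranged from 231 to 329 CPM in untreated and from 246 to 336 CPM in treated libraries. The summed epithelial markers differed by arm: they ranged from 277 to 327 CPM in untreated and from 286 to 345 CPM in treated control libraries (medians 304.3 and 304.2), against 112 to 238 CPM and 120 to 221 CPM in the knockdown arm (medians 120 and 126). Fewer cells of a type and less RNA per cell cannot be told apart in such bulk libraries. The target was read from 2610307P16Rik, a long noncoding RNA gene beside Sox4, a pairing with CASC15 that no table used here gives. Its level was 4.93 to 6.0 CPM in untreated and 4.68 to 6.12 CPM in treated control libraries, and 2.15 to 3.48 CPM and 2.59 to 3.88 CPM in the knockdown arm. The knockdown libraries all lay below the control libraries, with a log2 difference of -0.88 (adjusted p = 1.37e-06).

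Receptor transcripts for angiotensin II were close to undetectable in every group. Agtr1a had 7 counts among the 312455987 counts of the 16 libraries. In untreated control cells its counts were 3, 0, 1 and 0. In untreated knockdown cells they were 0, 0, 1 and 0. Of the treated libraries, only replicate 4 of the knockdown arm held any, with 2 counts. Agtr1b and Agtr2 had 0 counts in these 16 and in all 30 libraries of the series. A count of 0 allows up to 3 counts, which is 0.0988 to 0.190 CPM in a single library and 0.0096 CPM over the 16 libraries together; such floors cover counting error only. Mas1, the receptor for angiotensin-(1-7), had 9 counts in all. Every single library lay at or under 3 counts for these genes, although the totals of Agtr1a and Mas1 over the 16 libraries lie above 3, and no fold change is given for them.

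Receptors for other vasoactive agonists were read in the same libraries from a set of 17 that was added after the angiotensin receptors had been seen. Of these, 9 had at least 1 count in every library and a median TPM (a level per transcript length and library) of at least 1. F2r, the thrombin receptor, was the most abundant, with a TPM of 452 to 604 and a median of 547. S1pr2, a sphingosine 1-phosphate receptor, had a median TPM of 29.4, and the adrenergic receptor Adra1b one of 2.93. Htr2a (serotonin) had a median TPM of 2.95 and Avpr1a (vasopressin) of 1.82. The endothelin receptors resembled those for angiotensin, with 20 counts for Ednra and 0 for Ednrb. Other receptors of the set were also low over the 16 libraries. Adra1a and Ptgfr had 0 counts, Bdkrb2 2, Htr2b 8, S1pr3 22 and Tbxa2r 50. For comparison, the PDGF receptor gene Pdgfrb had a median TPM of 182 and Pdgfra of 6.86. Low counts of transcript do not measure receptor protein, which was not assayed.

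**Figure D1:**
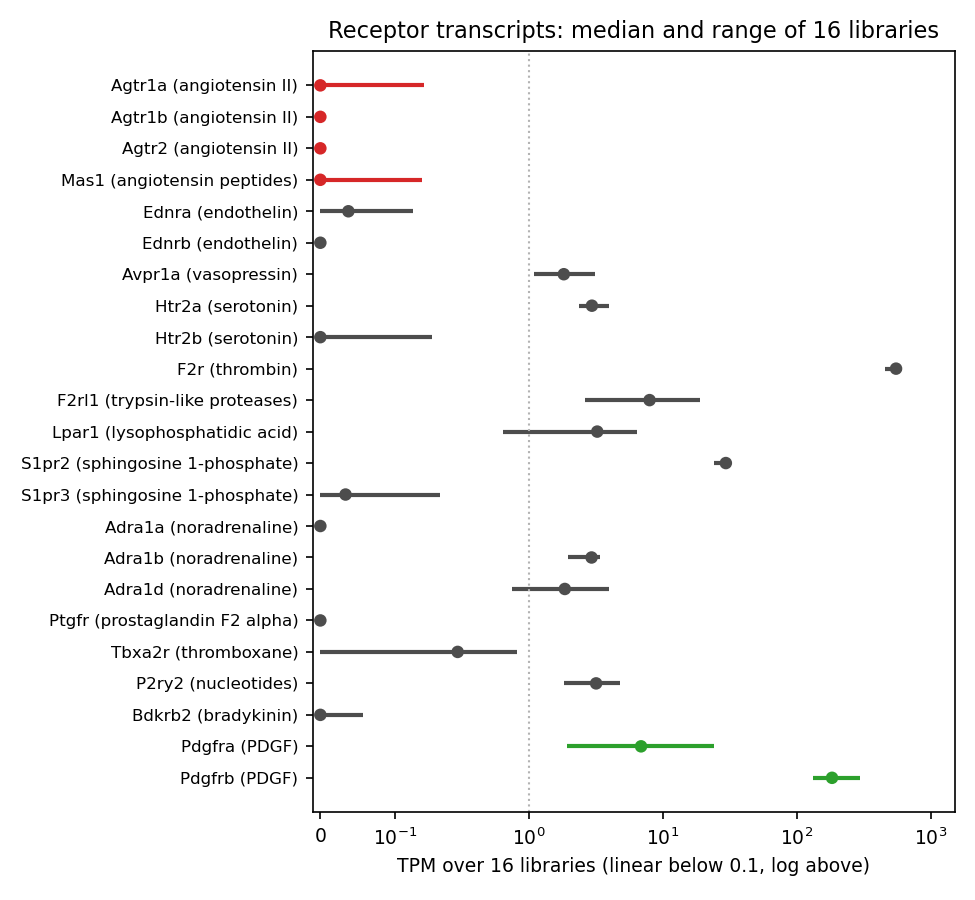
Transcript level of 23 receptor genes in the 16 libraries, in TPM on an axis that is linear below 0.1 and logarithmic above; points are medians and lines run from the lowest to the highest library. Angiotensin receptors (red) have a median of 0, F2r (grey) one of 547 and Pdgfrb (green) one of 182.

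No gene passed the test for a response to angiotensin II. In edgeR's quasi-likelihood test with arm and replicate number as covariates, 0 of 14872 genes (0%) were called at an adjusted p under 0.05, 0% higher and 0% lower, and the smallest adjusted p was 0.9998. Before adjustment, 309 genes (2.08%) had a p under 0.05, of which 153 (1.03%) were higher and 156 (1.05%) lower. Evenly spread p-values would put a share of 0.05 of the genes there, so this share was low. The reason was not tested. DESeq2 called 0 genes, with 247 at an unadjusted p under 0.05. limma voom called 0, with 325, and 0 with 403 when the libraries were weighted by quality. A block for each of the 8 pairs of libraries that share arm and replicate number, which was added after the data were seen, called 0 genes (0%) and left 547 (3.68%) at an unadjusted p under 0.05.

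The same libraries and the same fit found other differences in many genes. The arm was called for 8347 genes (56.1%) and the replicate number for 5265 (35.4%). The summed epithelial markers given above moved with the arm, and their part in its calls was not tested. PDGF-BB, tested with 4 libraries against 4 in a fit of all 20 libraries of the run, changed 8238 of 15103 genes (54.5%), with 4281 higher (28.3%) and 3957 lower (26.2%). The 4 untreated control libraries serve both agonists, so the 2 comparisons are not independent and their values are set side by side.

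**Figure D2:**
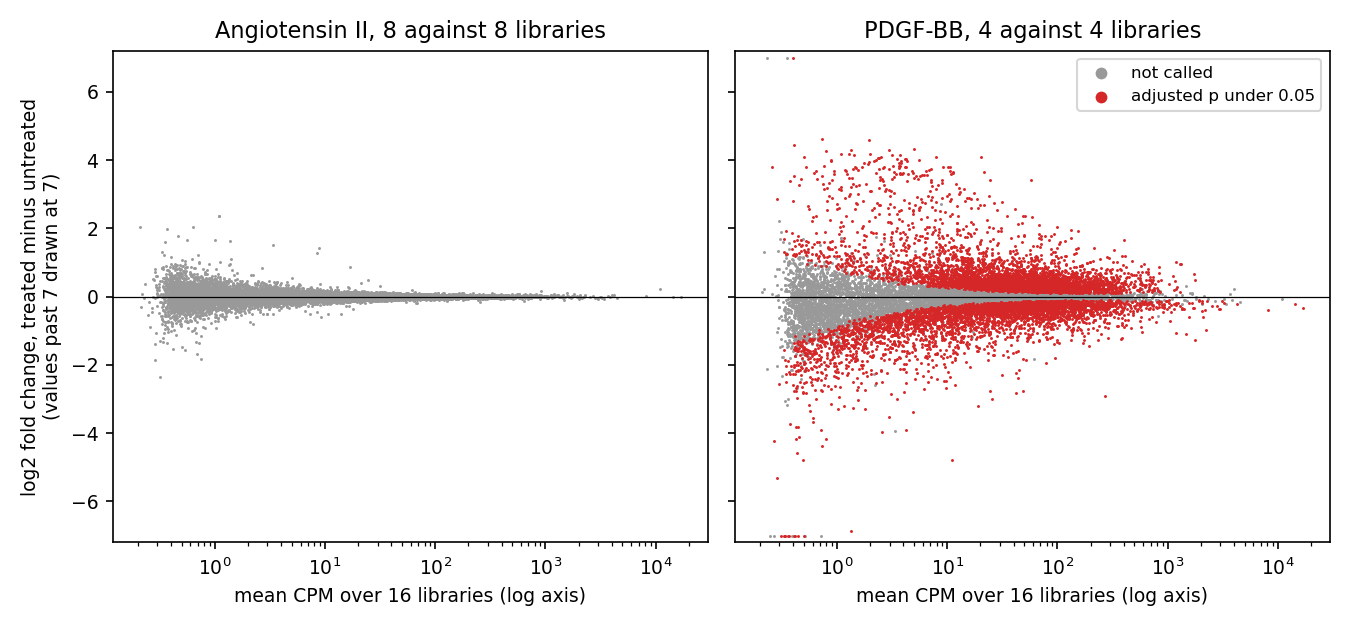
Log2 fold change against mean CPM (log axis) for every gene tested, for angiotensin II on the left and PDGF-BB on the right; red marks an adjusted p under 0.05 and values past 7 are drawn at 7. No gene is red on the left, where the spread narrows as the level rises, and 54.5% of the genes tested for PDGF-BB were called.

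Treatment was also a small part of how the libraries differed. Over 13047 genes, the sums of squares of log2 CPM put 47.4% with the arm, 28.6% with the replicate number, 9.36% with the arm by replicate combination, and 1.82% with angiotensin II. The remaining 12.8% is spread over 7 degrees of freedom, or 1.83% for each, close to the share of the single treatment term. The median gene had 0.744% of its variation with treatment and 30.0% with the arm.

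**Figure D3:**
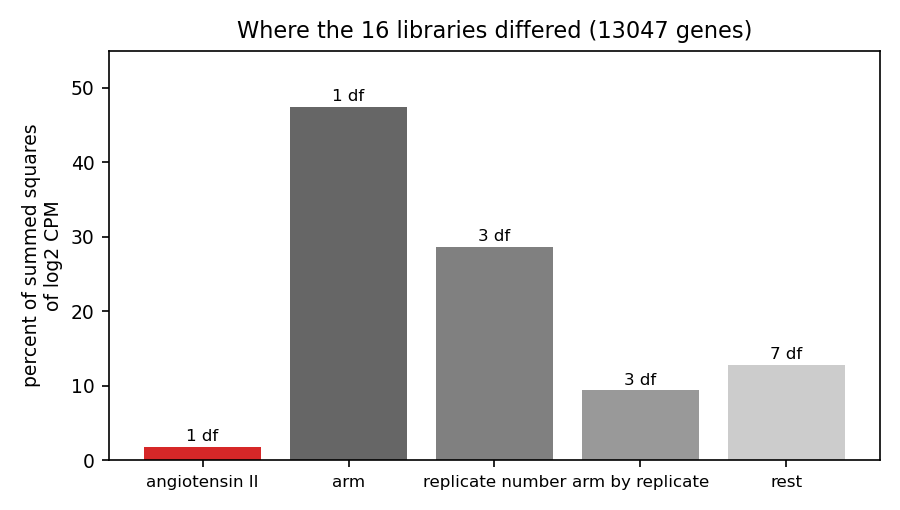
Share of the summed squares of log2 CPM over 13047 genes that goes with each term of the balanced layout of 16 libraries, with its degrees of freedom (df). Angiotensin II holds 1.82%, against 47.4% for the arm and 28.6% for the replicate number.

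The precision of the pooled estimate sets an upper bound on the response averaged over both arms, not on the response of a single arm. The bounds given here are the ends of the 95% interval of the fold change, treated over untreated. The median interval reached 1.1-fold to either side of its estimate. It lay wholly inside 2-fold (between halving and doubling) for 13996 genes (94.1%), inside 1.5-fold for 12248 (82.4%), and within 25% for 10323 (69.4%), which stands for a ratio of at most 5 to 4 in either direction. The bound was tighter at higher expression. Among the 2290 genes at 100 CPM and over, the half-width was 1.05-fold and 99.2% lay within 25%. Among 3106 genes at 5 to 20 CPM, 84.8% did. Among 1825 genes under 1 CPM, the half-width was 1.61-fold and 58.2% lay inside 2-fold, so that for the others the interval reached past a doubling or a halving.

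Known targets and pathway genes were read from 10 lists with 212 genes in all, of which 181 passed the filter on low counts. None was called, and 1 of 181 (0.552%) had an unadjusted p under 0.05, against 2.08% of all genes tested. Their estimates lay above 0 for 99 and below 0 for 82, with a median log2 fold change of 0.00335, against 0.000442 over all genes. The interval lay inside 2-fold for 175 of them, inside 1.5-fold for 158 and within 25% for 129. PDGF-BB raised 86 (47.5%) and lowered 41 (22.7%) of the same 181 genes, beside 28.3% and 26.2% of all genes tested for it, the shares against which its counts in each list below are to be read. The 6 list genes whose interval crossed 2-fold were Enpep, Fosb, Fosl1, Myh11, Itga8 and Ccne1, which all had a mean under 1 CPM. The 31 untested genes had between 0 and 11 counts in any library.

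Of the renin-angiotensin system itself, 10 of 16 genes were tested, and 4 had estimates above 0 and 6 below. Agt, the precursor of the peptide, was at 0.336 to 3.97 CPM in untreated libraries with a median of 0.960, and at 0.233 to 3.39 CPM with a median of 0.459 in treated ones. The ranges overlapped, 1 of 8 pairs was higher under treatment, and the log2 fold change was -0.38 (SE 0.254, unadjusted p = 0.150). Ace, the converting enzyme, had a 95% interval of 0.839 to 1.42-fold, and rose under PDGF-BB by a log2 fold change of 1.83 (adjusted p = 3e-08). Agtrap, which binds the AT1 receptor and promotes its internalization, had a log2 fold change of -0.09 and an interval of 0.869 to 1.01-fold. Ctsd, the protease cathepsin D, was the most abundant of the list and had an interval of 0.980 to 1.06-fold. Renin (Ren1) had 2 counts in all. PDGF-BB raised 2 of the 10 tested genes (20%) and lowered 4 (40%).

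The signal chain behind the AT1 receptor was expressed throughout. All 23 of its genes were tested, and the intervals of all 23 lay within 25%. Gnaq, the alpha subunit of Gq, was at 82.9 to 130 CPM (median 111) in untreated and at 82.3 to 127 CPM (median 106) in treated libraries, and its interval was 0.933 to 1.03-fold. Plcb1, a phospholipase C, had the highest upper bound of the chain at 1.13-fold, and Prkce, a protein kinase C, the lowest lower bound at 0.874-fold. Rock2, a kinase downstream of RhoA, had a bound of 1.05-fold. Under PDGF-BB, 10 of the 23 were higher (43.5%) and 7 lower (30.4%).

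Immediate early genes, many of them transcription factors, are induced within an hour of a stimulus in many cells, and the libraries were taken after 24 h. Of 22 genes, 21 were tested: 8 had estimates above 0 and 13 below, and the interval lay inside 1.5-fold for 18. Egr1, a zinc finger factor, stood at 24.0, 33.1, 44.3 and 37.6 CPM in untreated and at 26.8, 35.5, 48.9 and 30.3 CPM in treated control cells (replicates 1 to 4). In the knockdown arm it stood at 99.8, 101, 87.9 and 50.5 CPM untreated and at 88.3, 88.4, 87.3 and 50.4 CPM treated. Treated and untreated values overlapped in both arms, while each knockdown value lay above every control value. The pooled log2 fold change of Egr1 was -0.07 (SE 0.168, unadjusted p = 0.703), with an interval of 0.738 to 1.24-fold, beside a rise of 2.34 on the log2 scale under PDGF-BB (SE 0.222, adjusted p = 1.22e-06). Fos, the partner of Jun in AP-1, had an upper bound of 1.21-fold and Atf3, a stress-responsive factor, one of 1.24-fold. Ier3, an early response gene of survival signalling, had an interval of 0.901 to 1.11-fold. Klf6, a Krüppel-like factor and the most abundant of the list, had one of 0.954 to 1.07-fold. Fosl1 had the highest upper bound, 1.59-fold, and Fosb the lowest lower bound, 0.490-fold. PDGF-BB raised 13 of the 21 (61.9%) and lowered 1 (4.76%).

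Transcription of feedback genes of ERK and calcium signalling follows the activity of these pathways. Their levels were read at 24 h only, so earlier activity was not measured. Of 20 genes, 17 were tested, with 10 estimates above 0 and 7 below, and 15 intervals lay inside 1.5-fold. Rcan1, a calcineurin inhibitor induced by calcium through NFAT, was at 12 to 15.5 CPM (median 12.5) untreated and at 11.8 to 15.6 CPM (median 12.8) treated. These ranges nearly coincided, and the interval was 0.929 to 1.104-fold. Rgs2, a brake on Gq, was at 1.39 to 6.63 CPM (median 2.59) untreated and at 1.27 to 5.71 CPM (median 3.24) treated, with an interval of 0.767 to 1.53-fold, and PDGF-BB raised it by 1.47 on the log2 scale (adjusted p = 4.87e-04). Dusp1, a phosphatase that switches off MAP kinases, had an upper bound of 1.16-fold. Hbegf, the shed ligand of the EGF receptor, had one of 1.07-fold. Spred1, an inhibitor of Ras signalling, had one of 1.04-fold. PDGF-BB raised 10 of the 17 (58.8%) and lowered 1 (5.88%). Among those raised were Dusp6 by 1.33 and Spry4 by 2.20 on the log2 scale, for which the angiotensin II intervals were 0.923 to 1.17-fold and 0.900 to 1.38-fold.

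Matrix and matricellular genes were tightly bounded, and many of them are abundant here. Of 28 genes, 25 were tested, with 19 estimates above 0 and 6 below, a median log2 fold change of 0.01 and 24 intervals inside 1.5-fold. Ccn2, the profibrotic connective tissue growth factor, was at 173 to 308 CPM (median 239) untreated and at 191 to 299 CPM (median 232) treated. It was higher in 3 of 8 pairs, and its interval was 0.910 to 1.11-fold, whereas PDGF-BB lowered it by a log2 fold change of -1.09 (adjusted p = 4.82e-07). Upper bounds were 1.18-fold for Ccn1 (a matricellular YAP target), 1.06-fold for Thbs1 (thrombospondin), 1.02-fold for Tgfb1 (the cytokine TGF-beta), 1.12-fold for Fn1 (fibronectin) and 1.08-fold for Col1a1 (type I collagen). Eln (elastin) had the highest upper bound of the list, 1.43-fold. Spp1, the secreted phosphoprotein osteopontin, had the lowest lower bound, 0.661-fold. Its values were 1.28 to 4.97 CPM (median 2.28) untreated and 0.970 to 4.44 CPM (median 1.84) treated, and 2 of 8 pairs were higher. PDGF-BB raised Spp1 by 4.10 on the log2 scale (adjusted p = 1.05e-16), and over the list it raised 9 genes (36%) and lowered 8 (32%), beside 28.3% and 26.2% of all genes.

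Of 22 inflammatory genes, 17 were tested, with 9 estimates above 0 and 8 below, and 16 intervals lay inside 1.5-fold. Ccl2, the monocyte chemoattractant MCP-1, was at 20.2, 24.6, 29.4 and 22.7 CPM in untreated and at 21.2, 24.5, 28.6 and 18.2 CPM in treated control cells. In the knockdown arm it was at 4.62, 4.95, 5.76 and 8.75 CPM untreated and at 3.95, 4.58, 4.39 and 8.06 CPM treated. Treated values lay within or close to the untreated range in each arm, 1 of 8 pairs was higher, and the pooled interval was 0.749 to 1.15-fold. Il6, an acute phase cytokine, had 44 to 84 counts in untreated and 33 to 53 in treated control cells. In the knockdown arm it had 0 counts in each untreated library and 4, 1, 2 and 0 in the treated ones, so no fold is given there. The log2 fold change was 0.08 in the control arm and 0.27 pooled, so the pooled value and its upper bound of 1.88-fold also carry these few knockdown counts. Vcam1, a leukocyte adhesion molecule, had an upper bound of 1.07-fold, Ptgs2, the inducible cyclooxygenase, one of 1.06-fold, and the chemokine Cxcl12 one of 1.06-fold. PDGF-BB raised 7 of the 17 (41.2%) and lowered 6 (35.3%), with Vcam1 higher by 0.65 and Ptgs2 by 1.14 on the log2 scale.

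Among NADPH oxidase and redox genes, 18 of 24 were tested, and all 18 intervals lay inside 1.5-fold. Nox1, an oxidase catalytic subunit associated with angiotensin II in the vessel wall, had 19 counts in all and was not tested. Nox4, the constitutively active isoform, was at 11.3 to 20.6 CPM (median 14.2) untreated and at 10.6 to 20.7 CPM (median 13.7) treated. Its interval was 0.833 to 1.13-fold, beside a fall of -0.73 on the log2 scale under PDGF-BB (adjusted p = 6.08e-04). Hmox1, the stress-induced heme oxygenase, had an interval of 0.961 to 1.17-fold. Rac1, a small GTPase of the oxidase complex, had one of 0.945 to 1.02-fold. The highest upper bound was 1.31-fold, for Cybb, the phagocyte oxidase subunit. PDGF-BB raised 8 of the 18 (44.4%) and lowered 5 (27.8%).

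Contractile genes split into abundant and nearly silent members. Of 19 genes, 15 were tested, with 8 estimates above 0 and 7 below. Acta2 was at 160 to 260 CPM (median 213) untreated and at 178 to 268 CPM (median 203) treated. Its interval was 0.903 to 1.13-fold, and PDGF-BB lowered it by -0.93 on the log2 scale (adjusted p = 7.27e-05). Cald1 (caldesmon, an actin-binding protein), the most abundant member, had an interval of 0.951 to 1.06-fold. The low members were loosely bounded: 0.636 to 1.59-fold for Tagln, 0.498 to 1.87-fold for Myh11 and 0.855 to 3.11-fold for Itga8, an integrin subunit at 0.409 CPM untreated and 0.570 CPM treated. Intervals lay inside 1.5-fold for 10 of the 15. Over the list, PDGF-BB raised 3 of the 15 (20%) and lowered 2 (13.3%), beside 28.3% and 26.2% of all genes.

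All 12 tested genes of 15 in the growth factor list had intervals inside 1.5-fold. Edn1, the precursor of endothelin, was at 2.84 to 5.00 CPM (median 3.29) untreated and at 2.77 to 4.90 CPM (median 3.65) treated, with an interval of 0.861 to 1.19-fold, and fell by 1.38 on the log2 scale under PDGF-BB (adjusted p = 4.43e-06). Hif1a, the hypoxia-inducible factor subunit and the most abundant of the list, had an interval of 0.907 to 1.04-fold. Of the 12, PDGF-BB raised 2 (16.7%) and lowered 6 (50%).

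Cell cycle genes had mostly positive pooled estimates and wide spreads between batches. All 23 were tested, 19 estimates lay above 0 and 4 below, and the median log2 fold change was 0.05, against 3.31 under PDGF-BB, which raised 22 (95.7%) and lowered 1 (4.35%). The sign of the angiotensin II median was not stable: it was -0.0409 in the knockdown arm alone and -0.00843 without replicate 4 of the untreated control group, and it was also below 0 without replicate 2 of the treated control group. Cdc6, a licensing factor of DNA replication, was the one list gene with an unadjusted p under 0.05 (unadjusted p = 0.0476, adjusted p = 0.9998, log2 fold change 0.38, SE 0.183). It was higher in 7 of 8 pairs, and its ranges overlapped, at 0.420 to 4.94 CPM untreated and 0.809 to 4.44 CPM treated. Mki67, a proliferation marker, was at 22.2, 14.4, 24.1 and 48.7 CPM in untreated and at 18.3, 23.7, 30.2 and 60.3 CPM in treated control cells. In knockdown cells it was at 1.68, 3.56, 3.48 and 31.5 CPM untreated and at 1.85, 1.62, 4.19 and 30.1 CPM treated. Replicate 4 was the highest in each group whether or not angiotensin II was given, and the pooled interval of Mki67 was 0.635 to 1.83-fold. Ccnd1 (cyclin D1) was also highest in replicate 4 of each group, with an interval of 0.865 to 1.32-fold, and Ccnd2 had one of 0.909 to 1.195-fold. Over the list, 16 of 23 intervals lay inside 1.5-fold.

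For the target and its neighbour, angiotensin II gave intervals of 0.840 to 1.19-fold for 2610307P16Rik and of 0.966 to 1.07-fold for Sox4, a transcription factor at about the same level in both treatments (median 1156 CPM untreated, 1203 CPM treated). PDGF-BB lowered them by log2 fold changes of -0.62 (adjusted p = 0.00611) and -1.07 (adjusted p = 2.12e-10).

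**Figure D4:**
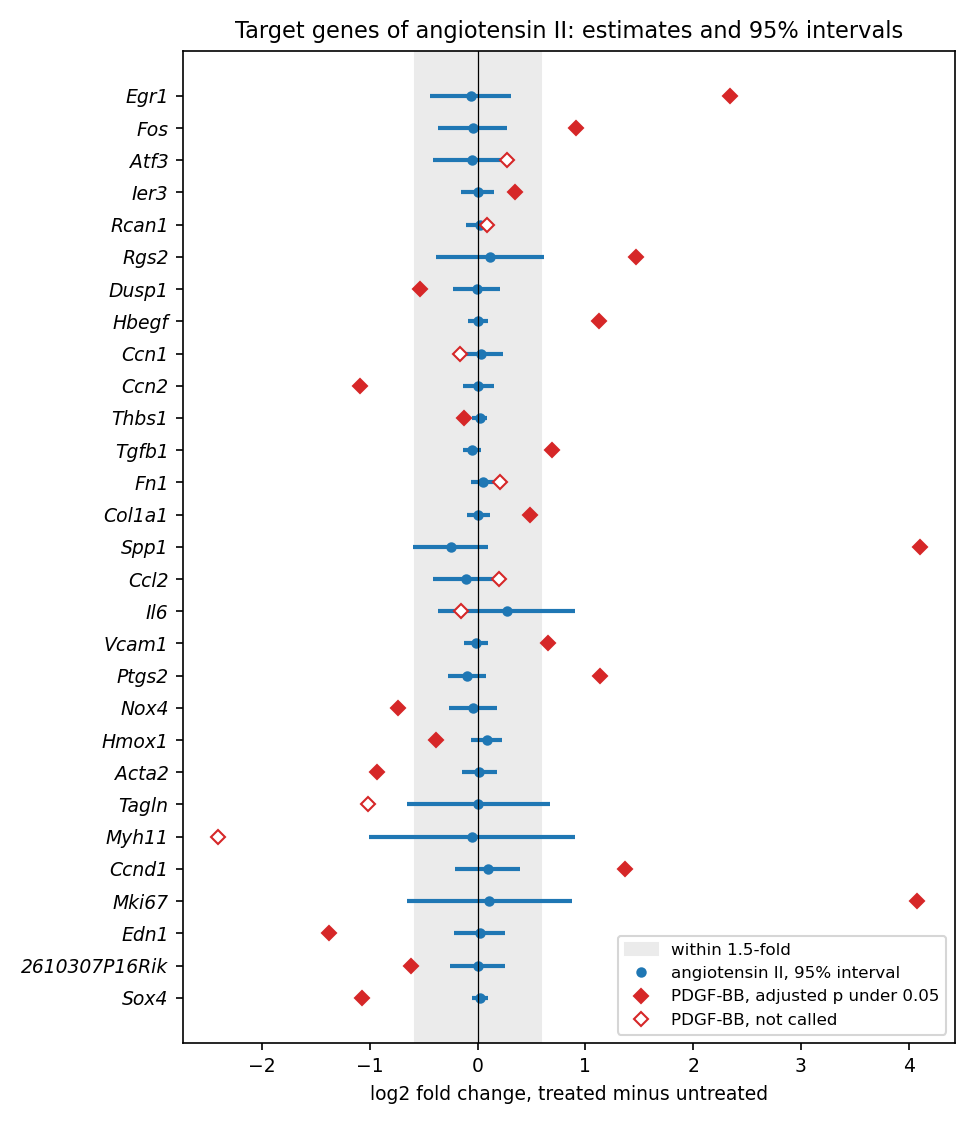
Log2 fold change of 29 tested genes from a list of 35 known targets and reference genes, with the 95% interval for angiotensin II (blue) and the estimate for PDGF-BB (red diamonds, filled where the adjusted p is under 0.05). All blue intervals include 0, and 23 of the 29 lie inside the grey band of 1.5-fold.

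**Figure D5:**
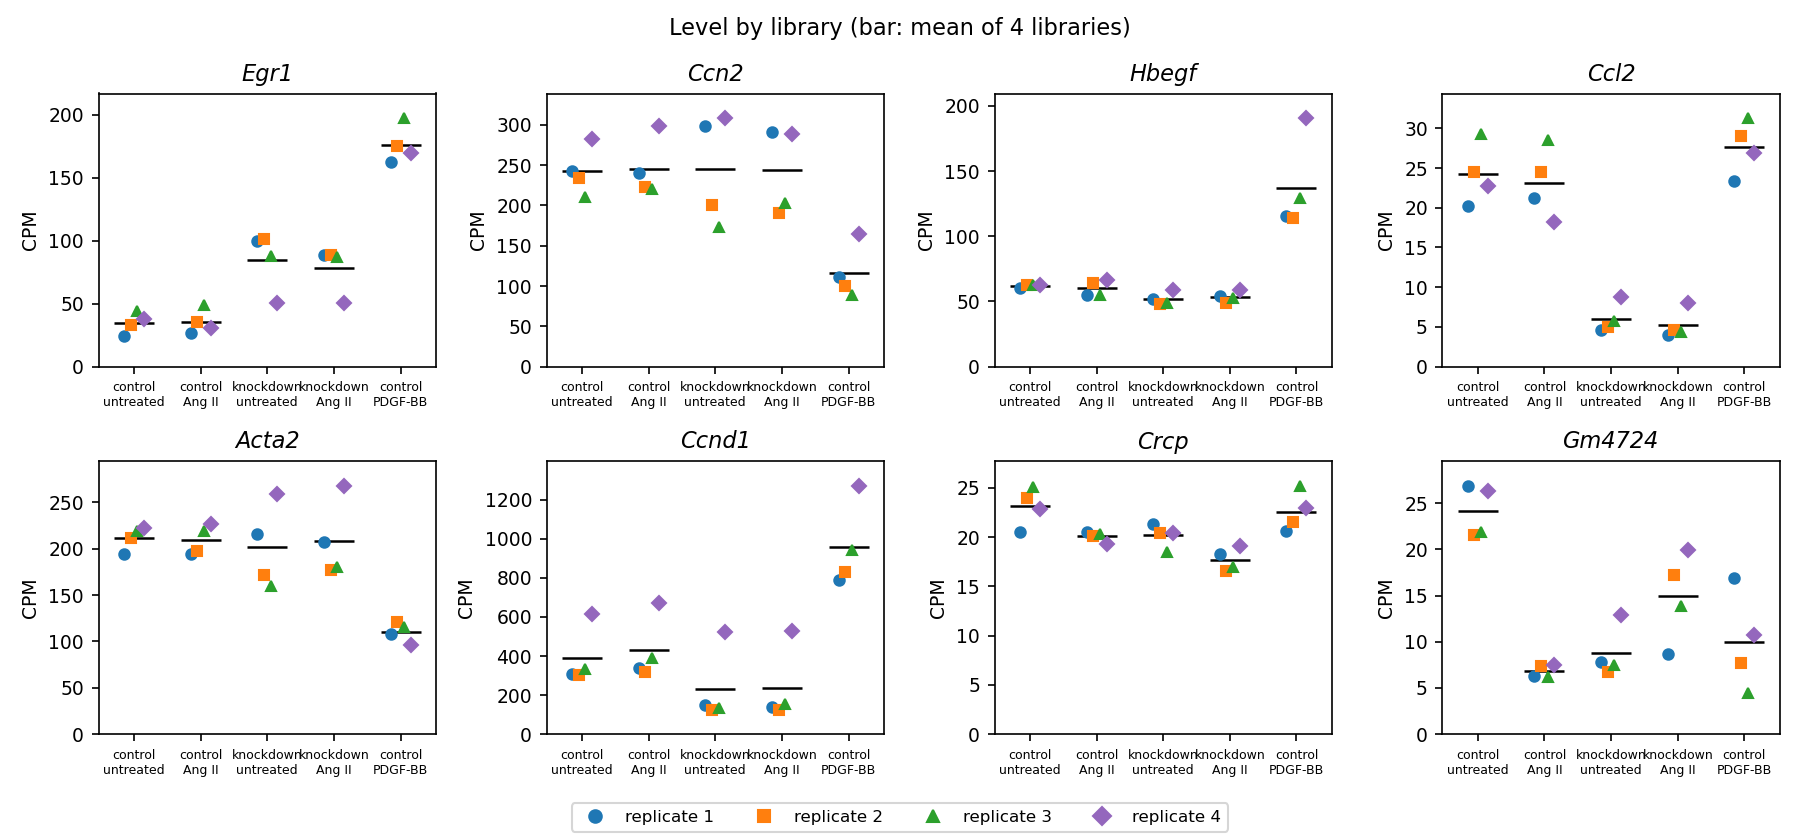
CPM of 8 genes in each library of run 3, by group, with symbols for the replicate number and a bar for the mean of 4 libraries; axes start at 0. Untreated and treated columns of an arm overlap for Egr1, Ccn2, Hbegf, Ccl2, Acta2 and Ccnd1, whereas Gm4724 in the control arm falls from 21.6 to 26.9 CPM untreated to 6.19 to 7.52 CPM with angiotensin II. Crcp overlaps in the knockdown arm but not in the control arm.

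The genes with the smallest unadjusted p had small differences. Only genes with a mean of at least 5 CPM and a named symbol were read. On the higher side stood Mns1, a meiosis and cilia protein (log2 fold change 0.36, SE 0.109, unadjusted p = 0.00332), followed by Tut1, Gdf11, Tubb4b and Polr2j with log2 fold changes of 0.11 to 0.16. On the lower side stood Crcp, a subunit of RNA polymerase III (log2 fold change -0.20, SE 0.0573, unadjusted p = 0.00221), followed by Coq3, Zfp629, Zbtb18 and Ccdc71l at -0.27 to -0.13. Mns1 was higher in 7 of 8 pairs and Crcp in 0. Over both arms, Crcp was at 18.5 to 25.1 CPM (median 21.0) untreated and 16.6 to 20.6 CPM (median 19.2) treated. These pooled ranges overlapped. In the control arm the ranges were apart, at 20.56 to 25.06 CPM untreated and 19.35 to 20.55 CPM treated. In the knockdown arm they overlapped, at 18.5 to 21.4 CPM and 16.6 to 19.1 CPM. All 10 had an adjusted p of 0.9998. Gdf11, a TGF-beta family ligand, and Tubb4b, a beta tubulin, were higher in all 8 pairs. Over all 14872 genes tested, 60 were higher and 50 lower in all 8 pairs, beside 0% called. With so many genes, pairs all of 1 sign also arise without a response, and these counts were not tested. Pooled over both arms, 0 genes had treated and untreated values that did not overlap. The arm itself was called for 56.1% of genes, so pooled ranges can overlap where those of 1 arm do not. This was so for Crcp and Gm4724 in the control arm.

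Among the 10637 genes with a mean of at least 5 CPM, estimates ran from -0.60 to 1.43 on the log2 scale, and 16 reached a ratio of 5 to 4 in either direction. The 4 that reached 1.5-fold were Gm4294, Rpl27-ps3, a second Nnt identifier and Gm2007. These are predicted genes, a pseudogene and a duplicate identifier, whose reads the authors' counting may share with near-identical copies, and their values are uncertain. Gm2007, for example, ran from 0 to 13.9 CPM untreated and from 0.0539 to 21.3 CPM treated (unadjusted p = 0.195). Of the protein genes with ordinary symbols that reached 5 to 4, Pi15, a peptidase inhibitor picked after its values were seen, was lower in 8 of 8 pairs (log2 fold change -0.41, SE 0.167, unadjusted p = 0.0232). Zfp781, with a similar p, was higher in only 5 of 8 pairs (log2 fold change 0.37, SE 0.147, unadjusted p = 0.0232).

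The 2 arms were also read separately, since a pooled effect could hide opposite responses. In the control arm 1 gene (0.00672%) was called, in the knockdown arm 0 (0%), with 291 and 341 at an unadjusted p under 0.05. The difference between the arms' responses was called for 1 gene (0.00672%), with 373 at an unadjusted p under 0.05. It was the same gene in both cases, the predicted gene Gm4724 (ENSMUSG00000078897.11), whose reads may be shared with near-identical copies. In the control arm its CPM values were 26.9, 21.6, 21.9 and 26.3 untreated and 6.26, 7.40, 6.19 and 7.52 with angiotensin II. In the knockdown arm they were 7.79, 6.73, 7.495 and 12.9 untreated and 8.72, 17.3, 13.9 and 20.0 with angiotensin II. The untreated control libraries were the high group, and the other 3 groups were lower and overlapped in part. The log2 fold change was -1.83 in the control arm (SE 0.182, adjusted p = 0.00111) and 0.77 in the knockdown arm (SE 0.180, adjusted p = 0.9997), a difference of 2.61 (SE 0.256, adjusted p = 9.37e-04). In the fit of all 20 libraries, the control arm's log2 fold change was -1.815. The estimate of the spread was larger there (SE 0.310), and the adjusted p was 0.953. With PDGF-BB, the gene was 4.47 to 16.9 CPM in control cells, a log2 fold change of -1.32 (adjusted p = 0.00205).

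Across genes with a mean of at least 5 CPM, the arms' log2 fold changes had the same sign for 47.3%, and their Pearson correlation was -0.0738 over 10637 genes. Across the 2290 genes at 100 CPM and over, the values were 42.7% and -0.197. The arms share batches, and genes are not independent, so these figures only describe the libraries. Egr1 had log2 fold changes of -0.01 in the control and -0.11 in the knockdown arm, Ccn2 of 0.01 and 0.00 and Acta2 of -0.02 and 0.05. Rgs2 and Dusp1 had opposite signs, 0.52 and -0.21 for Rgs2, and -0.19 and 0.17 for Dusp1, and for neither was the difference between arms called.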

How the data were processed

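The authors deposited RSEM expected counts by gene, unscaled, with a column for each library; per the submitters' processing notes STAR 2.7.11b and RSEM 1.3.1 were used, with GRCm39 and mm10 both named, so no coordinates are given. RSEM shares multi-mapped reads among genes, and the expected counts were rounded here. Of 78334 gene identifiers, 51486 matched a symbol in GENCODE M21, with 98.4% of the counts. In R 4.3.3, edgeR 4.0.16 filtered genes (filterByExpr, minimum count 10, minimum total 15), scaled them by TMM and fitted treatment, arm and replicate number with robust quasi-likelihood dispersions, Benjamini-Hochberg adjustment over all 14872 genes and 10 residual degrees of freedom. Intervals are 95%, from the unshrunken log2 fold change and its SE. The fitting steps were tested on simulated data. TPM used exon lengths from GENCODE M21. Listed CPM values come from the normalization of all 20 libraries of run 3.

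The replicate number equals the batch label, which pairs libraries across groups: deviations from group means had a mean correlation of 0.458 within an arm, 0.312 across arms and -0.0968 for other numbers. Alternatives were DESeq2 1.42.0, limma 3.58.1 voom, other size factors, filters, blocks, arms, and libraries left out. Named genes were 35 listed genes, the 5 in each direction with the smallest p at 5 CPM or more and an ordinary symbol, list genes with p under 0.05, and the most abundant gene of each list. The comparison and the lists were chosen with earlier results of these data known. The 10 libraries of run 2 were used only for receptor counts.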

Additional observations from a re-analysis of the deposited data

Results flagged for a closer look

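A library stood apart from the other 3 of its group in 35 of 200 groups of named genes (a gap to the nearest library that is large against the group's range, which chance gives in about 1 in 20 groups), and 29 of the 35 were replicate 4, batch P19, in treated and untreated groups alike. The genes share libraries, so these are not independent. In control angiotensin II cells, replicate 4 was the highest for Dusp1 (34.3 CPM against 23.9 to 25.7), Spp1 (4.44 CPM against 1.69 to 1.91) and Ctsd (548 CPM against 354 to 387). In knockdown angiotensin II cells, replicate 4 was the highest for Ccl2 (8.06 CPM against 3.95 to 4.58), Ptgs2 (17.5 CPM against 6.62 to 7.63), Nox4 (20.6 CPM against 10.6 to 10.8), Ccnd1 (530 CPM against 124 to 156), Mki67 (30.1 CPM against 1.62 to 4.19), Gdf11 (45.3 CPM against 32.1 to 32.8), Tubb4b (124 CPM against 86.8 to 91.4), Ctsd (448 CPM against 292 to 305), Rac1 (370 CPM against 338 to 341) and Ccnd2 (641 CPM against 261 to 294). In knockdown untreated cells, replicate 4 was the highest for Vcam1 (1918 CPM against 1294 to 1380), Ptgs2 (19.03 CPM against 7.93 to 8.89), Nox4 (20.6 CPM against 11.3 to 12.2), Hmox1 (61.7 CPM against 32.1 to 36.1), Ccnd1 (525 CPM against 122 to 147), Mki67 (31.5 CPM against 1.68 to 3.56), Tubb4b (124 CPM against 82.3 to 84.6), Ctsd (454 CPM against 279 to 296) and Ccnd2 (636 CPM against 250 to 272). In control untreated cells, replicate 4 was the highest for Ccnd1 (617 CPM against 302 to 331) and Ccnd2 (638 CPM against 408 to 423). Replicate 4 was the lowest for Egr1 in knockdown angiotensin II cells (50.4 CPM against 87.3 to 88.4), Fos in knockdown angiotensin II cells (1.09 CPM against 2.80 to 3.09), Zfp629 in control untreated cells (12.1 CPM against 17.5 to 18.5), Zfp629 in control angiotensin II cells (9.98 CPM against 15.4 to 15.9) and Zfp629 in knockdown untreated cells (24.2 CPM against 29.7 to 30.1). The other such libraries were for Hbegf in control untreated cells (lowest in replicate 1, 60.0 CPM against 62.2 to 62.6), Col1a1 in control angiotensin II cells (highest in replicate 1, 2265 CPM against 1970 to 2018), Myh11 in control angiotensin II cells (highest in replicate 2, 0.392 CPM against 0.0616 to 0.117), Edn1 in control angiotensin II cells (highest in replicate 3, 4.90 CPM against 3.57 to 3.79), Tut1 in knockdown angiotensin II cells (highest in replicate 1, 45.0 CPM against 41.9 to 42.1) and Polr2j in knockdown untreated cells (lowest in replicate 2, 17.7 CPM against 20.7 to 21.1).

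The response of Gm4724 to angiotensin II differed between the arms by 2.61 on the log2 scale in edgeR's interaction contrast (adjusted p = 9.37e-04); it was lower in 4 of 4 pairs of the control arm and higher in 4 of 4 of the knockdown arm.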

How the results depend on the processing

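The count of 0 called genes held for each of the 16 libraries left out in turn (lowest 0, highest 0), for DESeq2, both voom fits, other size factors, a filter at 1 CPM, the fit without the replicate block, the group-mean fits and the added block of 8 pairs. It became 37 without a filter on low counts. Of these 37, 30 were among the genes of the main fit, so most had passed the filter there. The median of their highest counts was 139. Of the 37, 23 have 0 counts in at least 1 library, and 32 are predicted genes, pseudogenes or lack a symbol. The count became 1 without replicate 3 of every group (Gm14308). It was 3 in the control arm alone (Gm4724, Gm49391 and a second Ndor1 identifier). It was also 3 in the knockdown arm alone (mt-Atp8, and Gm10359 and Gm12671, which have identical counts). The cause of these changes was not tested. The number of genes at an unadjusted p under 0.05 was 692 without the filter, 148 with no replicate block, 547 with the replicate block as 8 pairs, 496 in the control arm alone and 720 in the knockdown arm alone, and 247 to 424 when 1 library was left out. Intervals inside 2-fold then numbered 13842 to 13890 and inside 1.5-fold 12055 to 12125. Of 320 list medians under alternatives, 315 moved by less than 1 SD over the pairs; the others were -0.118 for the renin-angiotensin system and 0.0176 for immediate early genes in the control arm alone, -0.0382 for inflammatory and -0.0409 for cell cycle genes in the knockdown arm alone, and -0.0356 for inflammatory genes without replicate 4 of the treated knockdown group (range over single libraries left out: -0.0356 to 0.00945). Of 1599 values of named genes under alternatives, 187 had the other sign and 0 passed the threshold (lowest adjusted p 0.515). PDGF-BB gave 6586 to 8241 called genes and the arm 6603 to 8338, both lowest without the replicate block. Bounds were widest for genes under 1 CPM (half-width 1.61-fold), and depth was not varied.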
